A study of Mus musculus with 4 samples.

Results

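Lipid droplet coat and lipolysis genes were followed in mouse fetal liver: the 5 perilipins Plin1, Plin2, Plin3, Plin4 and Plin5, the 3 CIDE genes Cidea, Cideb and Cidec, the lipase gene Pnpla2 and its inhibitor G0s2. The 10 genes were chosen by name, and all their probes were taken, that is every array probe designed on one of their RefSeq transcripts. They had 13 probes among the 56605 different non-control probes of the array, and 22911 genes in all had a probe that could be given 1 symbol. Female C57BL/6J mice received either a control diet (CD, 4.3% of energy as fat) or a high-fat diet (HFD, 60% of energy as fat) during gestation. Gene expression was measured in the livers of their fetuses at E14.5, with 2 Agilent arrays for CD and 2 for HFD. The maternal diet is the one treatment that the labels give. The labels give the sex as female without saying whether fetus or dam is meant. The sources used here do not state how many fetuses or litters stand behind an array, so the p-values measure only the spread between these samples, which may be technical.

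A lipid droplet is a core of triglyceride and cholesteryl ester under a single layer of phospholipid, and its coat proteins decide which lipases reach the core. Perilipins cover that surface: Plin2 and Plin3 in most cells, Plin1 mainly in adipocytes and steroid-producing cells, Plin4 in adipocytes and muscle, and Plin5 in tissues that burn fat. CIDE proteins gather where droplets touch and let lipid pass from the smaller to the larger droplet, and in hepatocytes Cideb also takes part in loading very-low-density lipoprotein (VLDL). Pnpla2 encodes adipose triglyceride lipase, which takes the first fatty acid off a triglyceride, and G0s2 binds and inhibits it. In liver these genes are best known from steatosis, in which droplets accumulate in hepatocytes.

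A level here is the log2 of a probe's processed fluorescence minus the 75th percentile of its array, so that 0 stands for the brightness at that percentile, and levels are compared between arrays for the same probe only. After filters on dim, flagged and erratic probes, 41332 probes entered 1 limma model (HFD minus CD), the 13 probes of the droplet genes among them. The 4 arrays shared 1 slide and 1 scan. Between 65.4% and 70.0% of the probes of an array were well above background, and no spot was saturated. Between replicates the CD pair was wider apart than the HFD pair, with an SD over probes of 0.58 log2 units for CD 1 minus CD 2 and of 0.34 for HFD 1 minus HFD 2. All 8 hepatocyte markers (Alb, Afp, Ttr, Apoa1, Apoa2, Serpina1a, Fgb and Hnf4a) were well above background on all 4 arrays, as were the trophoblast marker Tpbpa, the muscle marker Ckm and the steroidogenic marker Cyp11a1. The samples are bulk RNA, in which fewer cells of a type and less RNA per cell cannot be told apart.

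No difference between the diets was detected for any of the droplet genes beyond the spread of the arrays. Of their 13 probes, 0 passed limma at an adjusted p under 0.05 and 0 at an unadjusted p under 0.05, and 2 other tests run on the same values also gave 0. Over all tested probes the adjusted count was 0 as well, while 1.58% were higher and 1.76% lower in HFD at an unadjusted p under 0.05. Fold changes were above 0 on the log2 scale for 7 genes and below 0 for 3, by the brightest probe of each gene. Of all 18205 genes tested, 57.6% were above 0. The median was 0.10 for the droplet genes against 0.04 for all genes tested. Both HFD arrays lay above both CD arrays for 3 genes, Plin1, Plin3 and Plin5, and below them for 0. Of all tested probes, 19.5% lay wholly above and 11.1% wholly below. With 2 arrays against 2, an exact two-sided permutation test cannot give a p below 0.333, so such separations carry no test of their own.

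**Figure D1:**
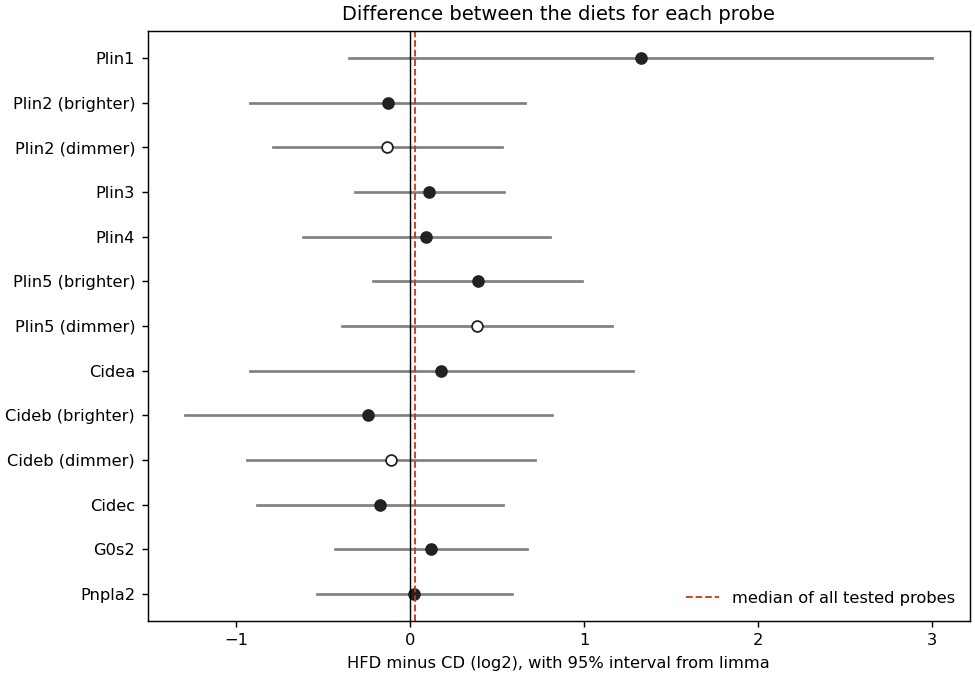
Difference between HFD and CD (log2, horizontal axis) for each of the 13 probes, with the 95% interval from limma. Filled points are the brightest or single probe of a gene and open points the dimmer one, and all 13 intervals include 0.

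The coats found in most cells, Plin2 and Plin3, were measured above background on every array, and neither differed between the diets beyond the spread of the arrays. The brighter Plin2 probe read 4.34 and 5.10 for CD and 4.62 and 4.55 for HFD. Both HFD values therefore fell between the CD values. The mean level was 4.72 ± 0.54 (SD, n = 2) for CD and 4.59 ± 0.05 (SD, n = 2) for HFD, a log2 difference of -0.13 ± 0.30 (SE; limma adjusted p = 1.00). The 95% interval from limma, which draws the spread of a probe partly from all probes, ran from a fold of 0.528 to one of 1.58. A difference of 2-fold in either direction lay outside this limma interval. No interval was computed from the spread of this probe alone, so such a difference is not excluded. The dimmer Plin2 probe, on the same transcript, gave -0.96, -0.39, -0.77 and -0.85 in the order CD 1, CD 2, HFD 1 and HFD 2, and the same log2 difference of -0.13. The 2 probes thus followed each other from array to array, with deviations from their own means that differed by at most 0.09. Plin3, a coat protein that moves between cytosol and newly formed droplets, varied least over the 4 arrays among the 10 genes. It read 3.86 and 3.78 for CD and, without overlap, 3.91 and 3.95 for HFD. The difference of 0.11 ± 0.16 (SE; limma adjusted p = 1.00) corresponds to a fold of 1.08, with a 95% interval from 0.804 to 1.45.

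Plin5, the coat protein that ties droplets to mitochondria, had the largest difference among the 9 members well above background on every array. Its brighter probe read -3.17 and -2.69 for CD and -2.57 and -2.51 for HFD. Both HFD arrays were above both CD arrays, but CD 2 lay closer to HFD 1 than to CD 1. The difference was 0.39 ± 0.23 (SE), a fold of 1.31 with a 95% interval from 0.864 to 1.98, with a limma adjusted p of 1.00. The second Plin5 probe gave a like difference of 0.38 ± 0.29 (SE), with levels of -3.72 and -3.01 for CD and -2.87 and -3.09 for HFD. On that probe the groups overlapped. Plin4, whose gene lies next to Plin5 in the genome, read -4.45 and -5.04 for CD and -4.79 and -4.51 for HFD. Its groups overlapped, with a difference of 0.09 ± 0.27 (SE; limma adjusted p = 1.00).

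Plin1, the coat protein of adipocytes and steroidogenic cells, was hardly measurable. It read -5.92 and -7.58 for CD and -5.03 and -5.82 for HFD, and only HFD 1 was well above background. The order of the arrays therefore rests on values at the edge of detection, with 3.69 fluorescence units on CD 2 and 29.7 on HFD 1. The fitted difference was 1.32 ± 0.63 (SE; 95% interval -0.35 to 3.0; limma adjusted p = 1.00). It rests on 3 arrays that were not well above background, and no fold is given. The arrays also differed in steroidogenic markers. Cyp11a1, the enzyme that starts steroid synthesis, read -1.56 and -2.78 for CD and -0.72 and 0.13 for HFD. The summed level of the 7 steroidogenic markers ranged from 10.3 to 13.0 in CD and from 15.4 to 24.2 in HFD (multiples of the brightness at the 75th percentile). It was highest on HFD 2, where Plin1 was not well above background, and lowest on CD 2, where Plin1 was lowest. Like Cyp11a1, Cyp17a1 and Nr5a1 were higher in HFD without overlap, but the groups overlapped for Star, Hsd3b1, Cyp21a1 and Mc2r. Of all tested probes, 19.5% were higher in HFD without overlap. Hsd3b1 and Mc2r were lowest on CD 1. Of the 8 adipocyte markers, 3 (Adipoq, Ucp1 and Elovl3) were above background on 0 arrays. The sum of that list ranged from 6.48 to 6.61 in CD and from 6.26 to 9.01 in HFD and was almost wholly Fabp4, which read 2.62 and 2.56 for CD and 2.53 and 3.09 for HFD. Retn and Lipe were lowest on HFD 2, where Fabp4 was highest. The part of either cell type in the Plin1 values was not tested.

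Cideb had the widest gap between the CD arrays among the 9 members that were well above background throughout, and none of the CIDE genes passed the test. Its brighter probe read 3.10 and 4.19 for CD and 3.48 and 3.34 for HFD. CD 1 and CD 2 were thus 1.09 log2 units apart, while the HFD arrays differed by 0.14 and lay between them. The mean was 3.65 ± 0.77 (SD, n = 2) for CD and 3.41 ± 0.10 (SD, n = 2) for HFD, a difference of -0.24 ± 0.40 (SE; 95% interval -1.29 to 0.81; limma adjusted p = 1.00). A dimmer Cideb probe showed the same order of arrays, with -1.27, -0.46, -0.95 and -0.995 and a difference of -0.11. Cidea, best known from brown fat, read -2.78 and -3.75 for CD and -3.40 and -2.78 for HFD. Here CD 1 and HFD 2 stood together above the other arrays, and the difference of 0.18 ± 0.41 (SE; limma adjusted p = 1.00) was smaller than the gap within either group. Cidec, which lets droplets grow large in adipocytes and fatty liver, read -3.05 and -2.63 for CD and -2.77 and -3.26 for HFD. It was the 1 gene of the 10 whose HFD arrays were farther apart than its CD arrays, and its difference was -0.17 ± 0.27 (SE; limma adjusted p = 1.00).

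For the lipase and its inhibitor the group means lay close together, with the CD arrays on either side of the HFD arrays. Pnpla2 read 1.43 and 1.85 for CD and 1.66 and 1.67 for HFD. The HFD arrays differed by 0.01, and the means by 0.02 ± 0.21 (SE; limma adjusted p = 1.00), with a 95% interval of the fold from 0.689 to 1.5. G0s2 read 0.22 and 0.61 for CD and 0.59 and 0.48 for HFD. Its difference was 0.12 ± 0.21 (SE; limma adjusted p = 1.00), and the 95% interval of its fold ran from 0.742 to 1.59. For both genes a 2-fold difference in either direction was outside the limma interval, while the smaller differences inside it remain compatible with the values of these 4 arrays.

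**Figure D2:**
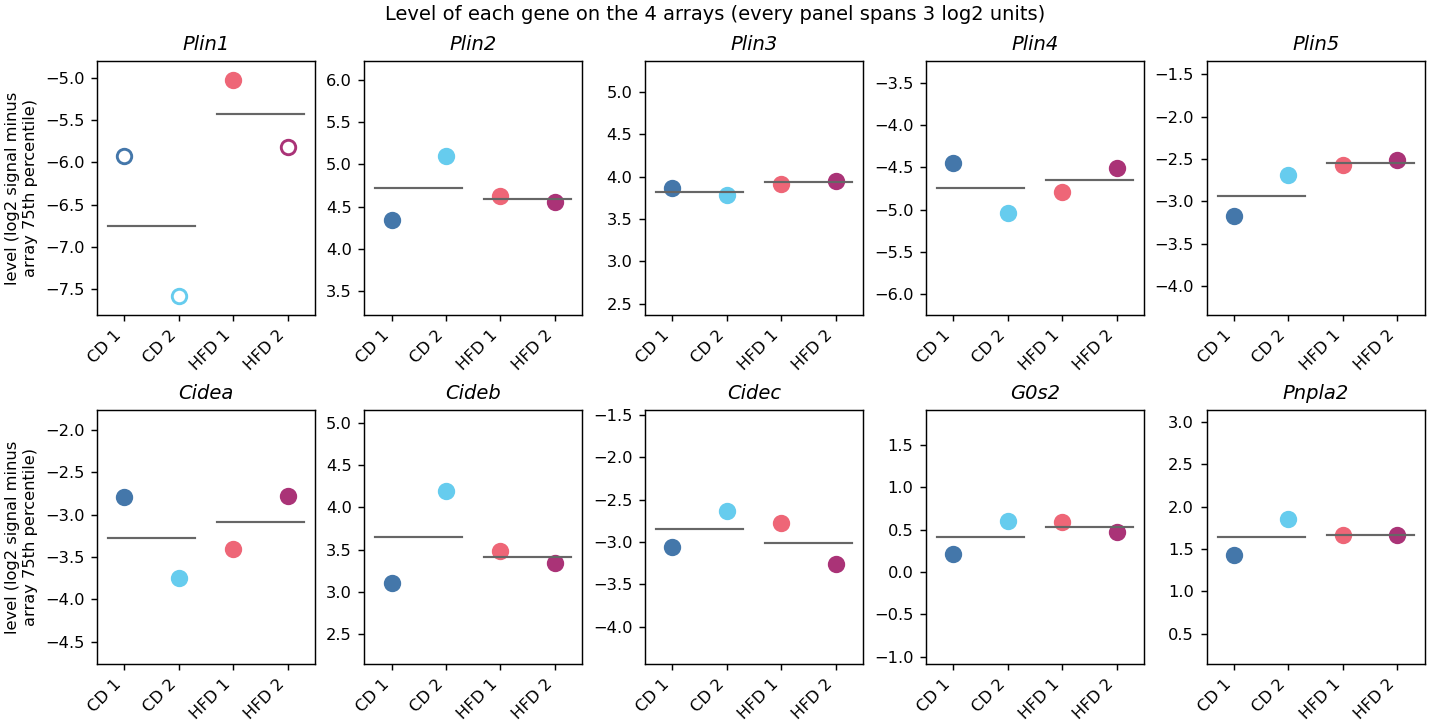
Level of the brightest or single probe of each gene on CD 1, CD 2, HFD 1 and HFD 2 (log2 signal minus the array's 75th percentile), with a line at each group mean. Every panel spans 3 log2 units, open points were not well above background (Plin1 on 3 arrays), and for 9 of the 10 genes the CD points lie farther apart than the group means.

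Most droplet genes were farther apart within CD than between the diets, as were most probes. For 9 of the 10 genes, all except Plin3, CD 1 and CD 2 differed by more than the 2 diets did, against 72.8% of all tested probes. Both HFD arrays lay between the CD arrays for 5 genes (Plin2, Plin4, Cideb, G0s2 and Pnpla2), against 39.2% of all probes. The direction was not shared: 6 genes (Plin2, Plin5, Cideb, Cidec, G0s2 and Pnpla2) were higher on CD 2 than on CD 1 and 4 (Plin1, Plin3, Plin4 and Cidea) were lower, against 52.6% of all probes that were higher on CD 2.

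Cell type markers also differed between the CD arrays. The 8 hepatocyte markers had a mean level of 6.58 on CD 1, 7.19 on CD 2, 6.97 on HFD 1 and 6.93 on HFD 2, the same order of arrays as all 4 probes of Plin2 and Cideb. Their summed level was 1298 and 2072 for CD and 1613 and 1645 for HFD. Single markers did not all follow: Alb read 8.14 and 9.06 for CD and 8.53 and 8.54 for HFD, while Apoa1 and Hnf4a were highest on HFD 1. Nor was the pattern limited to hepatocytes. Mean levels of the erythroid markers (5.68, 6.16, 6.01 and 6.09 in the order CD 1, CD 2, HFD 1 and HFD 2), the macrophage markers (0.79, 1.12, 0.93 and 0.97) and the granulocyte and mast cell markers (2.83, 3.18, 2.99 and 2.99) were also lowest on CD 1 and highest on CD 2. Levels of the 7 muscle markers ran the other way, with a mean of 2.32 on CD 1 and 1.61 on CD 2 and of 1.82 and 1.96 on the HFD arrays. Ckm, the muscle creatine kinase, read -1.003, -2.12, -1.91 and -1.23 in the order CD 1, CD 2, HFD 1 and HFD 2. Cidea and Plin4 were likewise lowest on CD 2 and next lowest on HFD 1. Among the other muscle markers Myh3, Tnnt3 and Actc1 had their 2 lowest levels on the same arrays. Acta1 was lowest on HFD 1, with 2.75 there and 2.83 on CD 2, and Myog and Myh6 were lowest on HFD 2. Summed levels were 88.3 and 45.3 for the muscle markers in CD and 52.1 and 70.1 in HFD. For the 6 stellate and mesenchymal markers, which begin with Des, they were 238 and 134 in CD and 189 and 199 in HFD. Trophoblast markers differed too, but not as one: Tpbpa read 3.01 and 4.8 in CD and 1.003 and -1.01 in HFD. Prl3b1, Prl3d1, Psg17 and Prl8a6 were likewise lower in HFD without overlap, as were 11.1% of all tested probes. Of these genes, Prl8a6 was well above background on 2 arrays and Psg17 on 3. Tpbpa and Prl3b1 did not pass the filters and were not fitted. Gcm1 read 5.65 and 4.28 in CD and 5.43 and 5.6 in HFD. The sum of the 7 trophoblast markers, 94.3 and 111 in CD and 77.2 and 92.7 in HFD, is made up mostly of Gcm1 and Psg23. These markers and the droplet genes come from the same 4 arrays, and the part of cell composition in the values of Plin2, Cideb, Cidea and Plin4 was not tested. When each array was centred on its own hepatocyte markers, a setting chosen after the data were seen, the difference for Plin2 was -0.19 and that for Cideb -0.30. The groups then did not overlap for Plin2, Cideb and Plin5 in place of Plin1, Plin3 and Plin5, against 19.2% of all probes in either direction, and 0 of the 13 probes had an unadjusted limma p under 0.05.

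**Figure D3:**
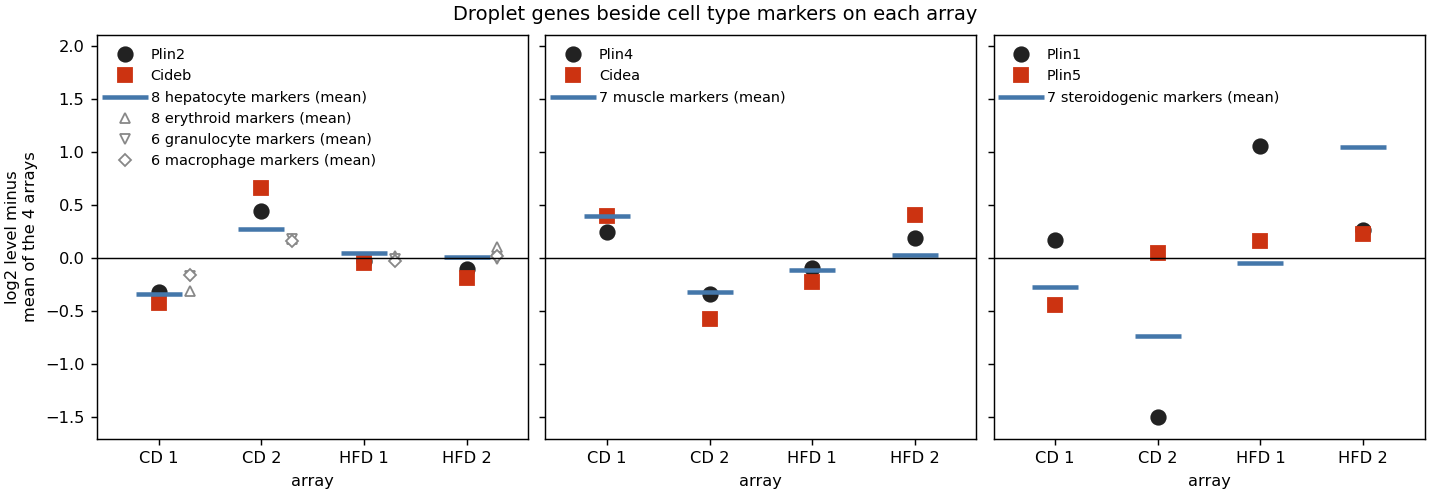
Deviation of each array from the mean of the 4 arrays (log2, vertical axis) for 2 droplet genes a panel (points and squares) and for the mean of a marker list (bars, and open grey symbols for 3 further lists). Plin2 and Cideb were highest on CD 2, as were the means of the hepatocyte, erythroid, granulocyte and macrophage markers. Cidea and Plin4 were lowest there, as were the means of the muscle and steroidogenic markers and of the stellate and mesenchymal markers (not drawn). Single markers of these lists did not all follow their mean. Plin1 was highest on HFD 1, while the mean of the steroidogenic markers was highest on HFD 2.

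The promoters of Plin2 and Cideb, which had the same order of arrays, and of Plin5, which had the largest difference among the members well above background on every array, are shown to let their sequences be compared. RefSeq promoter windows of build GRCm38.p6 were found for 9 of the 10 genes, and each window below holds the 250 bases before the annotated start, on the minus strand, written 5′ to 3′. Capitals mark matches, on either strand, to the nuclear receptor half-site AGGTCA and to the hypoxia response cores ACGTG and GCGTG, motifs that do not overlap one another here. The windows are chr4:86670060-86670309 for Plin2, chr14:55758425-55758674 for Cideb and chr17:56117549-56117798 for the Plin5 start that lies further upstream.
Plin2: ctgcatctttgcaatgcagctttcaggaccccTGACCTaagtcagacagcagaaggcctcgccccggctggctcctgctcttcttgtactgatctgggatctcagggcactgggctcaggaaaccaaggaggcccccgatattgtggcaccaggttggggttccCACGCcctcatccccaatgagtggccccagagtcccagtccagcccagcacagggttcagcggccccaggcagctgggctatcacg
Cideb: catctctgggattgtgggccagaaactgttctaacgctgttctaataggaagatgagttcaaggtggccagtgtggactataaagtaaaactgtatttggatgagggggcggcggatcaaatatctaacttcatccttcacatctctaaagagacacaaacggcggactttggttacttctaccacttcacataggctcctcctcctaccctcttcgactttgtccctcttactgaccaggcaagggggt
Plin5: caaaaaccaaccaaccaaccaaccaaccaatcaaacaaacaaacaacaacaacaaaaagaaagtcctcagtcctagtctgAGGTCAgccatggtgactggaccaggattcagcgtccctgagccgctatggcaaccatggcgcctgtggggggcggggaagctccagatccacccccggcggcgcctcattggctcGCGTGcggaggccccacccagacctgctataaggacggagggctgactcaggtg

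AGGTCA, the half-site to which PPAR and RXR receptors bind in pairs, was matched in 2 of the 9 promoters, those of Plin2 (first base at -218 from the start) and Plin5 (-170), which is 2 of the 11 windows of these genes (Plin5 and Cidec have 2 each), against 14.0% of all 32851 promoter windows of the same length. The spaced pair AGGTCANAGGTCA was in 0 of the 11 and in 0.0335% of all windows. GCGTG was matched in 5 of the 11 windows, those of Plin2, Cidec (1 of its windows), G0s2 and both of Plin5, against 28.2% of all, and ACGTG in 0 against 16.6%. In the Cideb window none of these motifs was matched. Nothing about the binding of a factor was measured.

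Genes that fill, build and empty droplets were set beside the droplet genes. Hand-written lists of 20 genes of triglyceride synthesis, 22 of droplet biogenesis, 27 of lipolysis and lipophagy, 13 of VLDL assembly and 22 of transcriptional regulators were read by the brightest probe of each gene, with Tmem41b and Tfeb each in 2 lists. Of all 18205 genes tested, 1.38% were higher and 1.46% lower at an unadjusted limma p under 0.05, and 0 at an adjusted p. In triglyceride synthesis 0 of 20 genes passed the unadjusted test, and the median difference was 0.17. The acyltransferase gene Agpat4 differed by 0.21, the triglyceride-forming enzyme Dgat2 by 0.07 and the fatty acid activating enzyme Acsl1 by 0.08. Dgat2 read 3.97 and 4.54 for CD and 4.41 and 4.26 for HFD, so the HFD arrays lay between the CD arrays as for Plin2.

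Droplet biogenesis gave 0 of 22 genes and a median of 0.02, with 0.02 for Pcyt1a, which makes phosphatidylcholine for the droplet surface, 0.08 for Vmp1, an endoplasmic reticulum protein, and 0.17 for the droplet GTPase Rab18. For lipolysis and lipophagy the count was 0 of 26 tested genes and the median 0.06. Hspa8, the chaperone that marks droplet coats for breakdown, differed by -0.01, the hydrolase Aadac by 0.05 and the monoglyceride lipase Mgll by 0.07. In VLDL assembly 0 of 13 genes passed, with a median of 0.07, and with -0.03 for the GTPase Arf1, 0.26 for the cargo receptor Surf4 and 0.23 for Apob, the structural protein of the particle. Among the transcriptional regulators 1 of 22 passed and the median was 0.11. This was Nr0b2, a bile acid responsive repressor, with a limma adjusted p of 1.00. Nr0b2 was well above background on 0 arrays, so no fold is given. The receptors Rxra and Rxrb, the partners of PPAR, differed by 0.06 and 0.01 and the lipogenic factor Srebf1 by -0.14. The 5 medians ran from 0.02 to 0.17, beside 0.04 for all genes and 0.10 for the droplet genes.

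**Figure D4:**
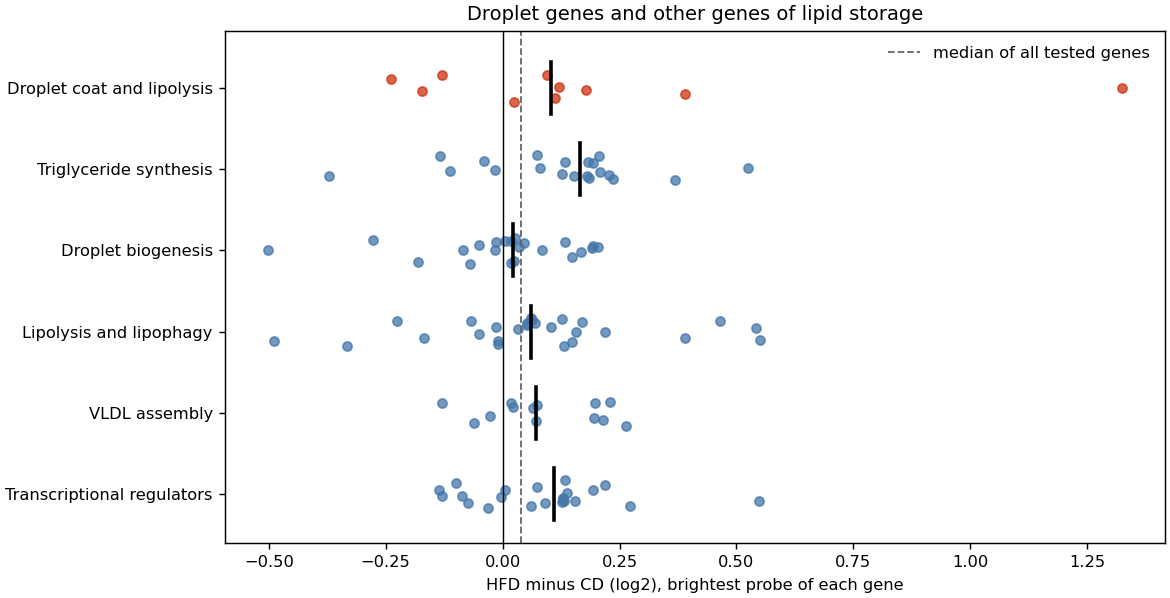
Difference between HFD and CD (log2, horizontal axis) for each tested gene of the droplet coat and lipolysis genes (top row) and of 5 lists of lipid storage genes, with a bar at each list's median and a dashed line at the median of all tested genes. Medians run from 0.02 to 0.17, and the point of Plin1, at the far right, rests on 1 array well above background.

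The sign of the difference depended for several members on which CD array was left out. Without CD 1 the differences were -0.51 for Plin2 and -0.78 for Cideb, and without CD 2 they were 0.25 and 0.30. In limma with 1 CD array left, whose spread was then taken from the HFD arrays, 5 of the 13 probes had an unadjusted p under 0.05 without CD 1: those of Plin1 (higher) and the 2 probes each of Plin2 and Cideb (lower), with limma adjusted p-values of 0.222 to 0.229. Of all probes, 12.0% were then higher and 8.88% lower at that p. Without CD 2, the 2 probes of Plin5 were higher, with 0.63 for the brighter one (limma adjusted p = 0.335), while 6.06% of all probes were higher and 8.72% lower. Without HFD 2, Plin1 alone was higher, by 1.72 (limma adjusted p = 1.00), against 0.571% of all probes higher and 1.31% lower. For Plin1, Plin3 and Plin5, whose groups did not overlap, leaving out an array cannot turn the sign, and their differences ranged from 0.49 to 2.15, 0.07 to 0.15 and 0.15 to 0.63 in these fits.

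**Figure D5:**
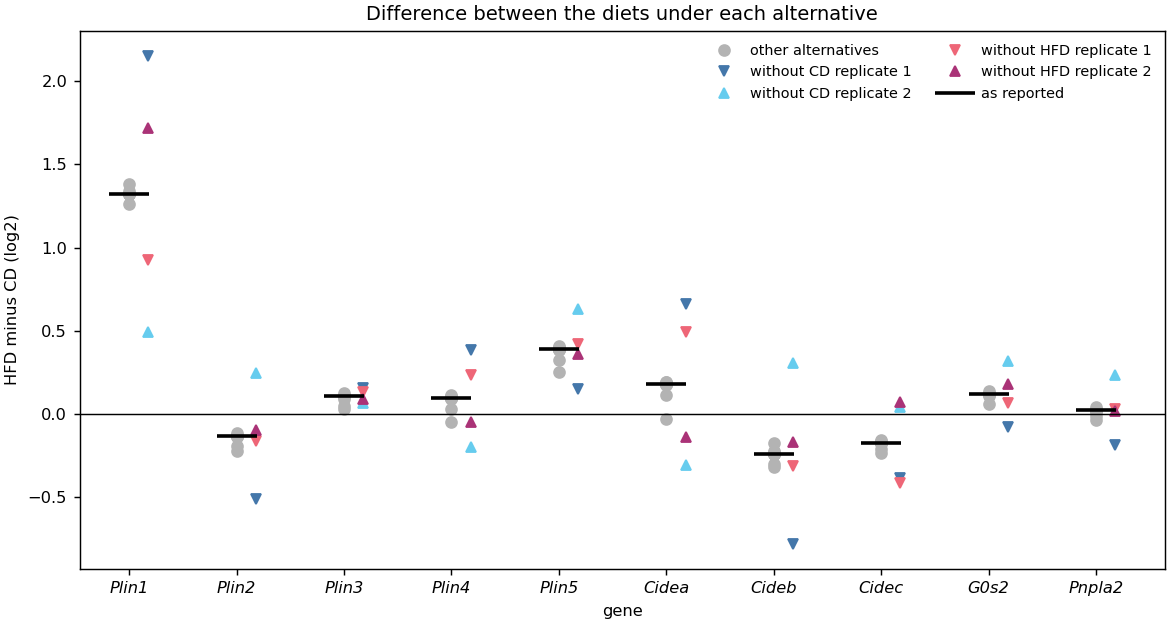
Difference between HFD and CD (log2, vertical axis) for each gene as reported (black bar), under other scalings, filters and tests (grey) and with 1 array left out (triangles). Leaving out CD 1 or CD 2 moved Plin2 from -0.51 to 0.25 and Cideb from -0.78 to 0.30, while Plin3 lay between 0.03 and 0.15 over all settings.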

How the data were processed

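Total RNA of fetal livers (E14.5) from CD-fed and HFD-fed dams was measured on 4 Agilent 1-colour arrays. Groups and replicate numbers came from the labels. The authors labeled cRNA with Cy3 and read the images with Feature Extraction 11.0.1.1, per the labels and the study's methods. For each spot they deposited an intensity from which the background and spatial trends had been taken out, with no scaling across arrays. Flags, deposited as scores of 0 or 1, mark outlier spots, saturated spots and those well above background. A further deposited table, of normalized signal, equals the intensity divided by 1 constant an array within 0.00012% over 41163 probes.

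The log2 intensity was averaged over the spots of a probe, flagged spots left out, and the array's 75th percentile of non-control probes was subtracted. Following the study's methods, probes under the 20th percentile on an array, flagged on an array, or with a CV over 50% (taken on the linear scale) in both groups were left out, which leaves 41332 of 56596. HFD minus CD was then fitted with lmFit and eBayes of limma 3.58.1 (R 4.3.3), without covariates and with Benjamini-Hochberg adjustment. The methods name no test for the arrays, and a t-test for the study was run as an alternative. The number of arrays limits the precision. Of 56605 probes, 32994 were given 1 symbol through RefSeq transcripts of GRCm38.p6. The files hold no mean brightness, so normexp (offset 50) was run on the median brightness.

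The 10 genes and all lists were chosen with earlier results of these data known. The text names every member. Of each pathway list it names the 3 genes with the highest mean level and those at an unadjusted p under 0.05. Of the marker lists it names the first genes, except that the erythroid, macrophage and granulocyte lists are given by their means only. A list of gut and stomach markers was also read and is not described. Further genes (other markers of hepatocytes, adipocytes, steroidogenic cells, muscle and trophoblast, and those of the closing section) were named after their values were seen. Alternatives were other scalings, filters, background corrections, the authors' table, tests, the replicate number as a block and each array left out. The scripts were tested on simulated data. Tables and plots were made in Python 3.11.15 with matplotlib 3.10.9, pandas 2.3.3 and numpy 2.4.6.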

Additional observations from a re-analysis of the deposited data

How the results depend on the processing

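Of the 13 probes, 0 had an unadjusted limma p under 0.05 under the other scalings, background correction, filters, the authors' table and both t-tests. The count was 1 (Plin1, limma adjusted p = 0.604) with a replicate block and 0 to 5 with an array left out. The replicate numbers are not shown to pair the arrays (correlation of same-numbered deviations -0.10). With 1 array for each diet and replicate number, the replicate block cannot move a fold change, only its SE and p. Genes without overlap in either direction were 3 as reported (30.6% of all probes), 2 with quantile normalization (30.4%) and with well-measured probes only (30.9%), 1 with normexp background correction (24.9%) and 3 to 10 with an array left out, when 47.3% to 82.7% of all probes did not overlap, since fewer arrays are compared. Under normexp the median difference was -0.032, with Plin4 at -0.045 and Cidea at -0.032, and Plin1 was not tested, nor was it where both arrays of a group had to be well above background. Normexp also moved the median of all probes from 0.03 to -0.02. Pnpla2 was at -0.0097 with quantile normalization and at -0.038 when centred on the hepatocyte markers. With an array left out, differences ranged from -0.51 to 0.25 for Plin2, -0.20 to 0.39 for Plin4, -0.31 to 0.66 for Cidea, -0.78 to 0.30 for Cideb, -0.42 to 0.070 for Cidec, -0.076 to 0.32 for G0s2 and -0.19 to 0.24 for Pnpla2. The causes of these shifts were not tested, except that fewer arrays were fitted. Counts over all probes at an unadjusted p under 0.05 were 1383 as reported, 611 with normexp, 508 when centred on the hepatocyte markers, 2089 by the methods' t-test, and 776 to 8609 with an array left out. Low signal over background limits Plin1 in particular, which was well above background on 1 array.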

Other observations

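Other genes that act on Pnpla2 or share its substrate, named here for their role after their values were seen, were measured on all 4 arrays. Abhd5, the coactivator that perilipins hold at the droplet, read 0.63 and 1.13 for CD and 0.92 and 0.82 for HFD, a difference of -0.01 ± 0.23 (SE). Hilpda, a hypoxia-induced inhibitor of the same lipase, read 1.29 and 1.61 for CD and 1.32 and 1.45 for HFD, a difference of -0.07 ± 0.19 (SE). For both genes the HFD arrays lay between the CD arrays. Hormone-sensitive lipase (Lipe) was dim, with -4.86 and -4.20 for CD and -4.84 and -5.20 for HFD, and its groups overlapped. Pnpla3, known from fatty liver, read -4.02 and -4.68 for CD and, without overlap, -3.94 and -3.83 for HFD, a difference of 0.47 ± 0.27 (SE; limma adjusted p = 1.00).

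Signal well above background was also found on each array for receptors and hypoxia factors known to act on droplet genes. Ppara read 0.93 and 1.26 for CD and 1.28 and 1.09 for HFD, a difference of 0.09 ± 0.20 (SE). Pparg, the receptor of adipocytes, had a difference of -0.0039 ± 0.19 (SE). Differences for the hypoxia-inducible factors were 0.14 ± 0.18 (SE) for Hif1a and -0.07 ± 0.18 (SE) for Epas1. Each of the 4 genes had a limma adjusted p of 1.00.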
